A study of Mus musculus with 4 samples.

Results

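Mitochondrially encoded transcripts are described here in single-cell RNA sequencing of dissociated mouse renal cortex. The members were all genes whose symbol starts with mt-, which the GENCODE annotation of GRCm38 gives as 37 genes on chromosome M: 13 mRNAs, 2 ribosomal RNAs (rRNAs) and 22 transfer RNAs (tRNAs). The deposited count files list 29 of them among 21279 genes: 12 mRNAs, both rRNAs and 15 tRNAs. The 8 members not listed were mt-Atp8 and the tRNA genes mt-Tw, mt-Ty, mt-Ts1, mt-Td, mt-Tk, mt-Tg and mt-Th.

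The libraries came from 2 Akita mice (C57BL/6-Ins2Akita/J, aged 116 and 119 days) and 2 Wild-type mice (aged 45 and 51 days), 1 library each, from the cortex of one kidney per mouse digested with collagenase. Akita mice develop diabetes without other treatment, from a dominant mutation in Ins2, an insulin gene. These ages are the sample labels' own, while the husbandry protocol in the labels speaks of 24 weeks, a disagreement that was not settled here. By the labelled ages, age ran with genotype and their effects cannot be told apart. The cells were profiled by Drop-seq, in which beads with oligo(dT) primers capture polyadenylated RNA in droplets and give each molecule a cell barcode and a unique molecular identifier (UMI).

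The mitochondrial genome is transcribed from both of its strands into long precursors. These are cut at the tRNAs that lie between the other genes, and most of the mRNAs and both rRNAs then receive an A tail. All 13 mRNAs encode subunits of the respiratory chain or of ATP synthase: mt-Nd1 to mt-Nd6 and mt-Nd4l encode subunits of complex I, mt-Cytb one of complex III, mt-Co1 to mt-Co3 of complex IV, and mt-Atp6 and mt-Atp8 of ATP synthase. Tubule cells, in particular those of the proximal tubule and the thick ascending limb, are known for dense mitochondria that power salt and solute transport.

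The 4 files held between 1003172 and 1289324 UMIs on 1994 to 1996 barcodes, and mitochondrial transcripts made up 1706114 of the 4580234 UMIs (37.25%). Retained cells were barcodes with at least 200 detected genes and at most 50% mitochondrial UMIs. There were 311 and 600 in Akita replicates 1 and 2, against 564 and 441 in Wild-type replicates 1 and 2. They held 541578 mitochondrial UMIs, 31.74% of the total. Akita replicate 2 and Wild-type replicate 1 shared 884 barcodes, while every other pair of files shared 3 or 4. Of the retained cells, 438 in Akita replicate 2 (73.0%) and 454 in Wild-type replicate 1 (80.5%) carried a shared barcode, so these libraries are not independent. From which of the 2 mice those cells came cannot be told from the files. Values without the shared barcodes are given beside the comparisons for which they were computed.

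Nuclear copies of mitochondrial genes differ in how far they match. A span of 4663 bases on chromosome 1 (chr1:24611535-24616197, GRCm38, minus strand) holds 7 annotated pseudogenes, each a copy of one mitochondrial mRNA. The following 60-base stretches come from the GENCODE transcripts in GRCm38, at unlike positions within their genes. They set a gene with almost no UMIs (mt-Co2) beside 2 that were counted well (mt-Nd3 and mt-Co1). Capitals mark the bases at which a gene and its nuclear copy differ.
mt-Co2: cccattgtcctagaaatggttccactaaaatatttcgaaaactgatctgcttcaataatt
Gm28661: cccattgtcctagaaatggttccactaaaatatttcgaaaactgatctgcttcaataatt
mt-Nd3: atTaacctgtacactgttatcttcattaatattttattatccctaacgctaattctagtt
Gm28438: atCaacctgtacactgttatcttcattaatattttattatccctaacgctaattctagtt
mt-Co1: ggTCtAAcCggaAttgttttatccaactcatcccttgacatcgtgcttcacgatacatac
Gm29216: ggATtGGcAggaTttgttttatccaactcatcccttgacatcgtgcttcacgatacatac

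The mt-Co2 stretch (chrM:7634-7693, plus strand) and the Gm28661 stretch (chr1:24614885-24614944, minus strand) lie at the 3′ end of the gene and are identical. The mt-Nd3 stretch (chrM:9459-9518) starts the gene, and Gm28438 (chr1:24613060-24613119) differs from it only by T3C, counted from the first base of mt-Nd3. The mt-Co1 stretch (chrM:6381-6440) begins at base 1054 of the gene, where Gm29216 (chr1:24616138-24616197) starts. The substitutions there, counted from the first base of mt-Co1, are T1056A, C1057T, A1059G, A1060G, C1062A and A1066T, and the remaining bases of that 492-base copy match mt-Co1.

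Members were next compared by the percentage of their 50-base windows that also occur in an annotated nuclear transcript. The figure was 100% for mt-Co2, 99.9% for mt-Co3, 99.5% for mt-Atp6 and 98.8% for mt-Nd4l. These genes had 11, 14, 7 and 2 UMIs over all barcodes of the 4 files. They were the 4 least counted mRNAs of those listed. mt-Atp8, the mRNA that the files do not list, shared no window with an annotated nuclear transcript. On chromosome M it lies between mt-Co2 and mt-Atp6. Between their copies Gm28661 and Gm10925 on chromosome 1 lies a stretch without an annotated copy (chr1:24614652-24614884), and its sequence was not searched. mt-Nd3 shared 98.0% of its windows and yet had 10611 UMIs. mt-Nd4, with 62.2% shared, had 77784 UMIs, and mt-Co1, with 51.1% shared, had 90795 UMIs. The last window of mt-Co1 that is not shared ends at base 1115 of 1545, so every window after it is shared. mt-Nd2, mt-Nd5 and mt-Rnr2 shared between 1.04% and 8.19%, and mt-Nd1, mt-Nd6, mt-Cytb and mt-Rnr1 shared none. Each of the other listed mRNAs had at least 69595 UMIs. How the authors' counting treated reads that map to several places is not given in the sources used here, so a low count of mt-Co2, mt-Co3, mt-Atp6 or mt-Nd4l cannot be read as a low level.

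**Figure D1:**
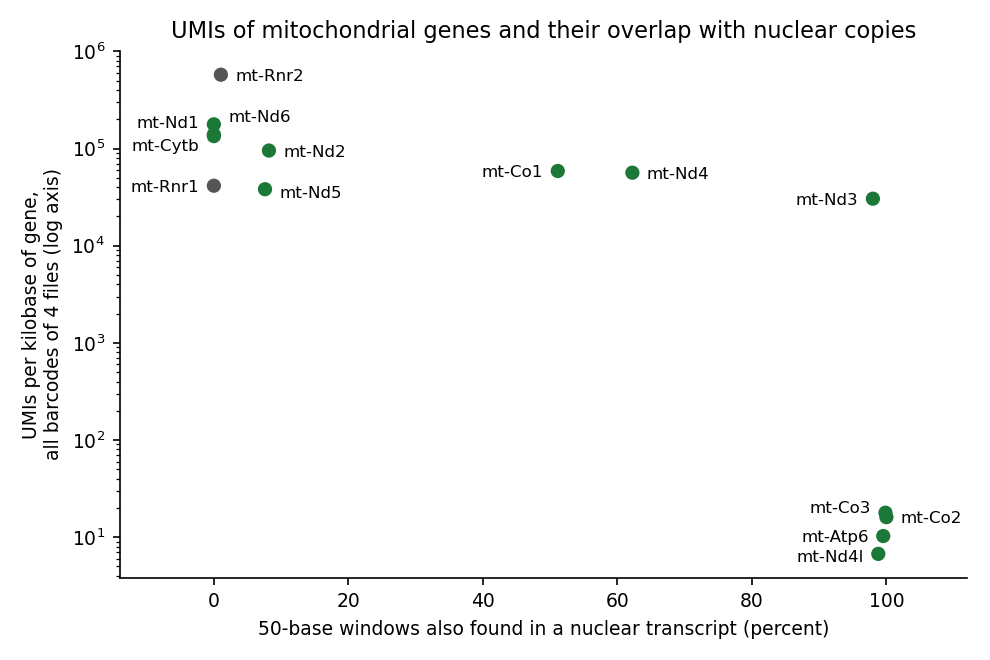
UMIs per kilobase of gene over all barcodes of the 4 files (log axis) against the percentage of the gene's 50-base windows that also occur in an annotated nuclear transcript, for the 12 listed mRNAs (green) and 2 rRNAs (grey). The 4 genes with at most 17.9 UMIs per kilobase share at least 98.8% of their windows, and mt-Nd3, at 98.0% shared, has 30490.

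The nuclear copies themselves received UMIs. The 7 copies on chromosome 1 had 2960 UMIs in all: 1338 for Gm29216 (the mt-Co1 copy), 1162 for Gm28437 (mt-Co3), 156 for Gm10925 (mt-Atp6), 148 for Gm28661 (mt-Co2), 82 for Gm28439 (mt-Nd4), 54 for Gm10222 (mt-Nd4l) and 20 for Gm28438 (mt-Nd3). For mt-Co2, mt-Co3, mt-Atp6 and mt-Nd4l the copy therefore had more UMIs than the mitochondrial gene. The highest counts among the copies were on chromosome 2, with 5107 UMIs for Gm13341 (chr2:22587291-22587962) and 3017 for Gm13340 (chr2:22588103-22589647). Aligned without gaps, Gm13341 had 173 mismatches to mt-Co2 over 672 bases, and Gm13340 had 37 to mt-Co1 over 1545 bases. An inserted or deleted base would raise such a count, and Gm13341 shared 35.3% of the 50-base windows of mt-Co2. The remaining copies with at least 10 UMIs were Gm4076 (362) and Gm11407 (166), both matching mt-Nd5, Gm11512 (93, mt-Co1), Gm13339 (87, mt-Nd2) and Gm20594 (61, mt-Rnr2). Together the 15 copies had 11853 UMIs, and none is included in the mitochondrial totals here.

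Both rRNAs hold stretches rich in A, shown here as the densest 20-base window of each (capitals) with its flanks.
mt-Rnr2: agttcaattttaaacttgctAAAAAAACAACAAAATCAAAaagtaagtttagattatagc
mt-Rnr1: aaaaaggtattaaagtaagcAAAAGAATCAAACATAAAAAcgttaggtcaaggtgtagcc
The mt-Rnr2 window (chrM:1468-1527 with its flanks) has 16 A in 20 bases and a run of 7, and the mt-Rnr1 window (chrM:705-764) has 15 A in 20. In the listed plus-strand mRNAs the densest window had 10 to 14 A, and in mt-Nd6 8. Some mitochondrial mRNAs end before their stop codon is complete, and the A tail that oligo(dT) binds supplies the missing bases. The last 40 bases of mt-Cytb (chrM:15249-15288) are an example, with the final T of the incomplete codon in capitals.
mt-Cytb: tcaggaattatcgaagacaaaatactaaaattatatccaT
The windows and this end describe the sequence, and where on the genes the reads began was not analysed here.

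The large-subunit rRNA, mt-Rnr2, dominated every library. It had 98150 and 86260 CPM (counts per 1e6 UMIs of retained cells) in the Akita libraries, against 89800 and 90040 CPM in the Wild-type libraries. The small-subunit rRNA, mt-Rnr1, had 4753 and 4099 CPM in Akita and 4295 and 3070 CPM in Wild-type. Akita replicate 1 was highest for both, and the groups overlapped for both. The ratio of mt-Rnr2 to mt-Rnr1 in retained cells was 20.6 and 21.1 in Akita, against 20.9 and 29.3 in Wild-type. Per kilobase of gene, over all barcodes, mt-Rnr2 had 575600 UMIs and mt-Rnr1 41450.

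Among mRNAs, mt-Cytb, the complex III subunit, had the most UMIs, with 19710 and 20230 CPM in the Akita libraries, against 24560 and 18140 CPM in the Wild-type libraries. Among complex I subunits, mt-Nd1 had 16130 and 16950 CPM in Akita, against 20600 and 15980 CPM in Wild-type. mt-Nd2 had 12340 and 12830 CPM in Akita, against 13990 and 10290 CPM in Wild-type. In each of these genes Wild-type replicate 1 was the highest library and Wild-type replicate 2 the lowest, with both Akita libraries between them. mt-Nd4 had 9213 and 9673 CPM in Akita, against 11590 and 8314 CPM in Wild-type, in the same order. mt-Nd5 had 8450 and 9799 CPM in Akita, against 9533 and 7261 CPM in Wild-type. mt-Nd3 was the lowest of the complex I mRNAs that were counted, with 1554 and 1106 CPM in Akita and 1190 and 1087 CPM in Wild-type. mt-Co1, the catalytic core of complex IV, had 10920 and 12570 CPM in Akita, against 12690 and 10630 CPM in Wild-type. None of these mRNAs separated the groups. In retained cells mt-Nd4l had no UMI in any library, and mt-Co2, mt-Co3 and mt-Atp6 had at most 3.59 CPM, below the limit of 3.69 to 5.38 CPM that a count of 3 sets in these libraries.

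**Figure D2:**
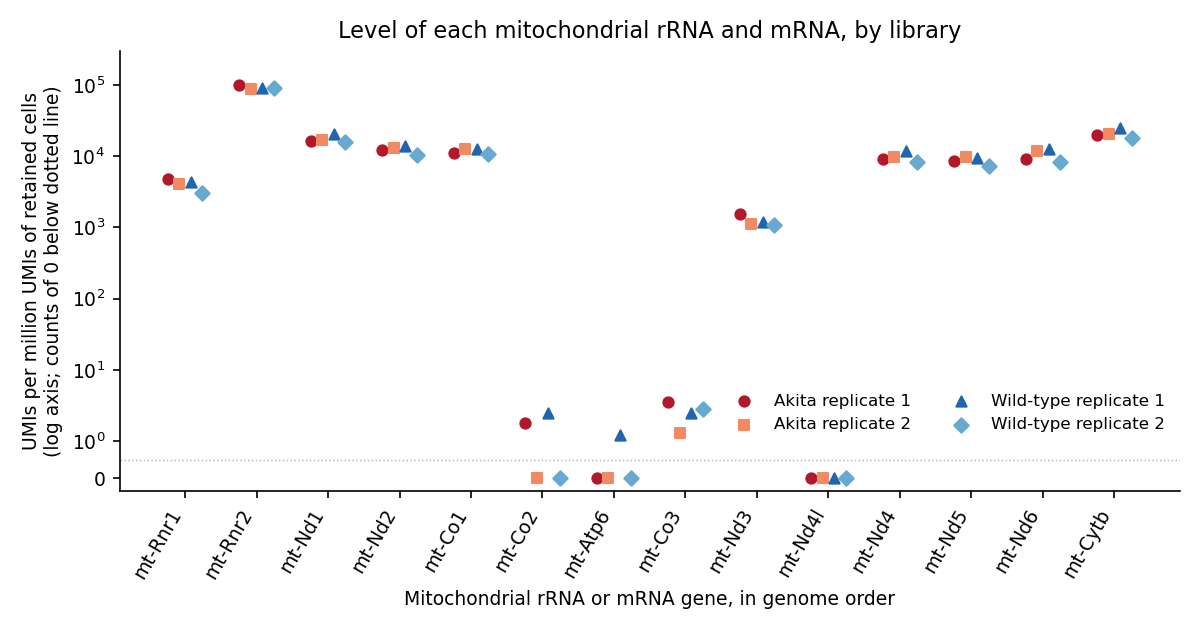
CPM in retained cells (log axis, with counts of 0 below the dotted line) for both rRNAs and the 12 listed mRNAs in genome order, 1 point per library, Akita left of Wild-type within each gene. mt-Rnr2 lies between 86260 and 98150, and mt-Co2, mt-Atp6, mt-Co3 and mt-Nd4l lie at or below 3.59.

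The best counted of the small genes lay on the light strand, though other light-strand genes there were low. mt-Nd6, the one complex I mRNA encoded on that strand, had 9120 and 11670 CPM in Akita, against 12680 and 8257 CPM in Wild-type. Of the tRNAs, mt-Tq (glutamine), mt-Te (glutamate) and mt-Tp (proline) had 18599, 4905 and 2993 UMIs over all barcodes, while mt-Tv (valine) and mt-Ta (alanine) had 555 and 471 and each of the other 10 listed had at most 262. Of the 5 named, all but mt-Tv lie on the minus strand of chromosome M. The minus-strand mt-Tn and mt-Tc had 1 and 238 UMIs, and mt-Ty and mt-Ts1, also on that strand, were not listed. The sequence of mt-Tq (chrM:3772-3842, minus strand) is shown as the tRNA gene with the most UMIs.
mt-Tq: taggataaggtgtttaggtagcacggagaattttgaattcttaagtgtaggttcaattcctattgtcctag
By coordinates mt-Tq overlaps the end of mt-Ti and mt-Nd6 overlaps the end of mt-Nd5, both on the plus strand. Whether reads were counted by strand is not given in the sources used here, so UMIs of a light-strand gene and of RNA from the opposite strand cannot be told apart. mt-Tq had 3220 and 1625 CPM in Akita and 2279 and 1795 CPM in Wild-type. mt-Te had 883.9 and 884.1 CPM in Akita and 967.1 and 535.5 CPM in Wild-type, and mt-Tp 464.3 and 268.7 CPM in Akita and 371.6 and 336.7 CPM in Wild-type. For all 3 tRNA genes the groups overlapped.

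Cell classes were rebuilt from clusters made without the mt- genes and their nuclear copies, so that the mitochondrial composition could be compared between them. There were 244 and 437 proximal tubule-like cells in Akita, against 442 and 320 in Wild-type. A distal tubule-like cluster was led by Tmem52b, Umod and Egf, with Calb1 and Slc12a3 also among its top 10 genes. It held markers of the thick ascending limb, the distal convoluted tubule and the connecting tubule. There were 58 and 120 distal tubule-like cells in Akita and 88 and 81 in Wild-type. Intercalated-like cells numbered 8 and 35 in Akita and 30 and 38 in Wild-type. UMIs of a gene of another cell type, as free RNA would give, were found in each class: Kap, a proximal tubule gene, had 6089 CPM in distal tubule-like cells and 6452 CPM in intercalated-like cells, against 41430 CPM in proximal tubule-like cells, at median depths of 788, 782 and 793 UMIs. Mitochondrial UMIs of free RNA were not measured apart, and their part in the differences between classes was not tested.

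In distal tubule-like cells mt-Co1 took a larger share of the mitochondrial UMIs than in proximal tubule-like cells of the same library, and mt-Rnr1 and mt-Nd6 took smaller ones. The share of mt-Co1 was 9.72% and 8.75% in distal tubule-like cells of the Akita libraries, against 4.56% and 6.13% in their proximal tubule-like cells. In the Wild-type libraries it was 8.77% and 8.13% in distal tubule-like cells, against 5.66% and 5.67% in proximal tubule-like cells. The ranges of the classes did not overlap, and the difference had the same sign in 4 of 4 libraries, with a mean of 3.34 percentage points. Per mitochondrial UMI, mt-Co1 rose by 0.69 ± 0.13 on the log2 scale (SE, edgeR quasi-likelihood adjusted p 6.19e-06). With every cell weighted equally the difference was 2.42 to 3.75 points, again in 4 of 4 libraries.

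mt-Rnr1 made up 1.69% and 1.67% of mitochondrial UMIs in distal tubule-like cells of Akita, against 2.64% and 2.34% in proximal tubule-like cells. Its Wild-type shares were 1.44% and 1.10%, against 2.23% and 1.91%. It fell by 0.64 ± 0.14 on the log2 scale (edgeR adjusted p 7.42e-05). mt-Nd6 made up 3.90% and 5.14% of mitochondrial UMIs in distal tubule-like cells of Akita, against 4.91% and 6.65% in proximal tubule-like cells. The Wild-type shares were 4.91% and 3.25%, against 6.50% and 5.07%. It fell by 0.44 ± 0.12 (edgeR adjusted p 0.00278). Both were lower in 4 of 4 libraries within each library, while between libraries the mt-Nd6 ranges of the classes overlapped.

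Of 15 members that passed the filter on low counts, 1 was called higher, against 21.9% of all 3303 genes tested, and 2 lower, against 26.0%. In both directions 48.0% of genes were called, a figure that includes the nuclear genes that define the clusters. The median log2 fold was -0.10 over the 15 members and -0.05 over all genes. mt-Rnr2, at 44.8% and 47.1% in distal tubule-like cells of Akita, against 51.3% and 44.7% in proximal tubule-like cells, and 45.5% and 51.2% against 43.1% and 50.4% in Wild-type, had no single direction: it was lower in Akita replicate 1 and higher in the other 3 libraries. Scaled to all UMIs in place of mitochondrial UMIs, the same 3 members were called, with log2 folds of 0.73 ± 0.15 for mt-Co1, -0.60 ± 0.14 for mt-Rnr1 and -0.39 ± 0.16 for mt-Nd6 (edgeR adjusted p 8.1e-05, 0.000465 and 0.0361), 1 higher against 24.2% of all genes and 2 lower against 25.9%, in all 3 of 15 against 50.2%. On that scale mt-Co1 had a log2 fold of 0.15 and no call with no limit on mitochondrial UMIs (edgeR adjusted p 0.402), and mt-Nd6 lost its call in 5 of 16 alternatives, among them leaving out Akita replicate 1, Akita replicate 2 or Wild-type replicate 1 (edgeR adjusted p 0.113, 0.0732 and 0.0927). mt-Co1 averaged nearly the same number of UMIs as mt-Nd1 in these cells, with ratios of 1.09 and 1.13 in Akita and 0.992 and 0.965 in Wild-type, while in proximal tubule-like cells the ratios were 0.559 and 0.640 in Akita and 0.543 and 0.605 in Wild-type.

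Without the shared barcodes, 58 and 33 distal tubule-like cells were left in Akita and 5 and 81 in Wild-type. Per mitochondrial UMI mt-Co1 and mt-Rnr1 were then still called (log2 fold 1.25 ± 0.27, edgeR adjusted p 1.56e-05, and -0.77 ± 0.26, edgeR adjusted p 0.00813), and mt-Nd6 was not (-0.48 ± 0.27, edgeR adjusted p 0.125). The size of the mt-Co1 value there rests on the 5 cells left in Wild-type replicate 1, with a difference of 20.9 points, against 2.46 to 5.16 points in the other 3 libraries. Per all UMIs mt-Co1 was then not called (0.75 ± 0.53, edgeR adjusted p 0.257). When a shared barcode was counted in 1 file only, all 3 members were called, at log2 folds of 0.73, -0.66 and -0.45. The file was chosen by the ratio of a barcode's UMIs in Akita replicate 2 to those in Wild-type replicate 1. The 363 barcodes with higher ratios (median 1.33) were kept in Akita replicate 2 and the 521 with lower ones (median 0.546) in Wild-type replicate 1. Whether this choice gives the mouse of origin was not tested.

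The finer split of the distal cluster (347 cells) gave the classes of the planned fit, 94 thick ascending limb-like and 57 distal convoluted tubule-like cells. The other cells were connecting tubule-like (64) or unnamed (clusters of 61, 36 and 35) and were not in that fit. Umod, Egf, Pvalb and Tmem52b were among the top 10 genes of the unnamed cluster of 61. The fitted classes shared markers. Umod, a thick ascending limb gene, had 4099 CPM in thick ascending limb-like cells and 1883 CPM in distal convoluted tubule-like cells. In proximal tubule-like cells it had 51.9 CPM. Pvalb and Cwh43, listed as distal convoluted tubule markers, were among the top 10 genes of the larger thick ascending limb-like cluster (73 cells). Thick ascending limb-like cells numbered 10 and 37 in Akita and 27 and 20 in Wild-type, and distal convoluted tubule-like cells 16 and 17 in Akita and 14 and 10 in Wild-type. Only 511 genes and 13 members passed the filter there. In thick ascending limb-like cells mt-Co1 rose by 0.77 ± 0.17 per mitochondrial UMI (edgeR adjusted p 0.000224), while mt-Rnr1 and mt-Nd6 had log2 folds of -0.79 ± 0.21 and -0.51 ± 0.18 (edgeR adjusted p 0.00174 and 0.0136). The mt-Nd6 call was lost at Leiden resolution 2 (edgeR adjusted p 0.0515). Of 13 members 1 was called higher, against 25.4% of genes, and 2 lower, against 32.9%, in all 3 against 58.3%. In distal convoluted tubule-like cells mt-Co1 had a log2 fold of 0.28 ± 0.17 and was not called, mt-Rnr1, mt-Nd6 and mt-Nd1 were lower (-0.84 ± 0.23, -0.67 ± 0.18 and -0.45 ± 0.16) and mt-Rnr2 was higher (0.24 ± 0.10, edgeR adjusted p 0.0351), so that of 13 members 1 was called higher, against 35.6% of genes, and 3 lower, against 22.7%. Without Akita replicate 2 or without Wild-type replicate 1 the calls of mt-Rnr2 and mt-Nd1 were lost (edgeR adjusted p from 0.0534 to 0.166). The mt-Rnr2 call was lost in 4 of 6 alternatives, with an adjusted p of up to 0.229 with no filter on low counts. Per all UMIs, 1 of 13 members was called higher in thick ascending limb-like cells (28.8% of genes) and 2 lower (36.8%), in all 3 against 65.6%. There the mt-Nd6 call was lost in 5 of 11 alternatives, among them leaving out any 1 library (edgeR adjusted p from 0.0626 to 0.147), and that of mt-Co1 with no filter on low counts (edgeR adjusted p 0.841) and with no limit on mitochondrial UMIs (edgeR adjusted p 0.582). In distal convoluted tubule-like cells 0 were called higher (25.4% of genes) and 9 lower (32.7%), in all 9 against 58.1%, and DESeq2 called 9 as well. The median over all genes was 0.29 per mitochondrial UMI and -0.13 per all UMIs in distal convoluted tubule-like cells, and mt-Rnr2 and mt-Co1 changed sign with the scaling, at -0.16 ± 0.23 and -0.13 ± 0.22 per all UMIs. The count of 9 was 3 with Akita replicate 2 left out and 2 with Wild-type replicate 1 left out. Without the shared barcodes these classes were not fitted, since Wild-type replicate 1 kept 2 thick ascending limb-like and 0 distal convoluted tubule-like cells. Mitochondrial UMIs were 14.8% to 20.1% of all UMIs in distal convoluted tubule-like cells and 17.4% to 20.6% in proximal tubule-like cells.

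Intercalated-like cells, the acid-base regulating cells of the collecting system, had a composition shifted to the large rRNA. mt-Rnr2 made up 57.5% and 55.3% of mitochondrial UMIs in intercalated-like cells of Akita, against 51.3% and 44.7% in proximal tubule-like cells. For Wild-type the shares were 53.3% and 61.6%, against 43.1% and 50.4%. The difference was positive in 4 of 4 libraries, between 6.12 and 11.2 points. With every cell weighted equally it was 0.511 to 6.45 points, still positive in all of them. mt-Rnr2 rose by 0.27 ± 0.10 per mitochondrial UMI (edgeR adjusted p 0.0248), and the adjusted p was 0.0846 with Akita replicate 2 left out and 0.107 with Wild-type replicate 2 left out, and 0.0734 at a limit of 25% mitochondrial UMIs.

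The members called lower were mt-Nd4, mt-Nd1, mt-Cytb and mt-Nd6. mt-Nd4 made up 2.80% and 3.76% of mitochondrial UMIs in intercalated-like cells of Akita, against 4.77% and 5.34% in proximal tubule-like cells. In Wild-type it made up 4.21% and 3.06%, against 5.85% and 4.92%, and it fell by 0.60 ± 0.13 on the log2 scale (edgeR adjusted p 0.000224). mt-Nd1, mt-Nd6 and mt-Cytb fell by 0.43 ± 0.12, 0.43 ± 0.13 and 0.39 ± 0.12 (edgeR adjusted p 0.00368, 0.00597 and 0.00595). For mt-Cytb, mt-Nd1 and mt-Nd4 the highest intercalated-like share lay below the lowest proximal tubule-like share. mt-Co1 and mt-Nd5, with log2 folds of -0.06 ± 0.13 and 0.03 ± 0.13, were not called. mt-Ta was also called as higher, on 14 UMIs in these cells, and lost the call in 3 of 9 alternatives: without Akita replicate 2, with no filter on low counts and with barcodes 1 base apart counted once (edgeR adjusted p 0.0588, 0.121 and 0.211). Of 15 members 2 were called higher, against 30.0% of genes, and 4 lower, against 15.9%, in all 6 against 46.0%. Per all UMIs 0 of 15 were called higher (16.6% of genes) and 11 lower (26.1%), against 42.7% in both directions, and DESeq2 called 11 as well. mt-Nd4 had the lowest fold there (-1.20 ± 0.16), and mt-Rnr2, at -0.33 ± 0.18, was not called (edgeR adjusted p 0.142). The median over all genes was 0.47 per mitochondrial UMI and -0.10 per all UMIs, so the sign of mt-Rnr2 rests on the scaling.

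The intercalated-like comparison could not be made without the shared barcodes in all libraries, since Wild-type replicate 1 kept no such cell and Akita replicate 2 kept 5. In the 3 libraries left, mt-Nd4, mt-Nd1 and mt-Rnr1 were lower in 3 of 3 and mt-Rnr2 was higher in 2 of 3, with -4.89 points in the 5 cells of Akita replicate 2. Counting a shared barcode in 1 file only, mt-Rnr2 was higher in 3 of 3 libraries.

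**Figure D3:**
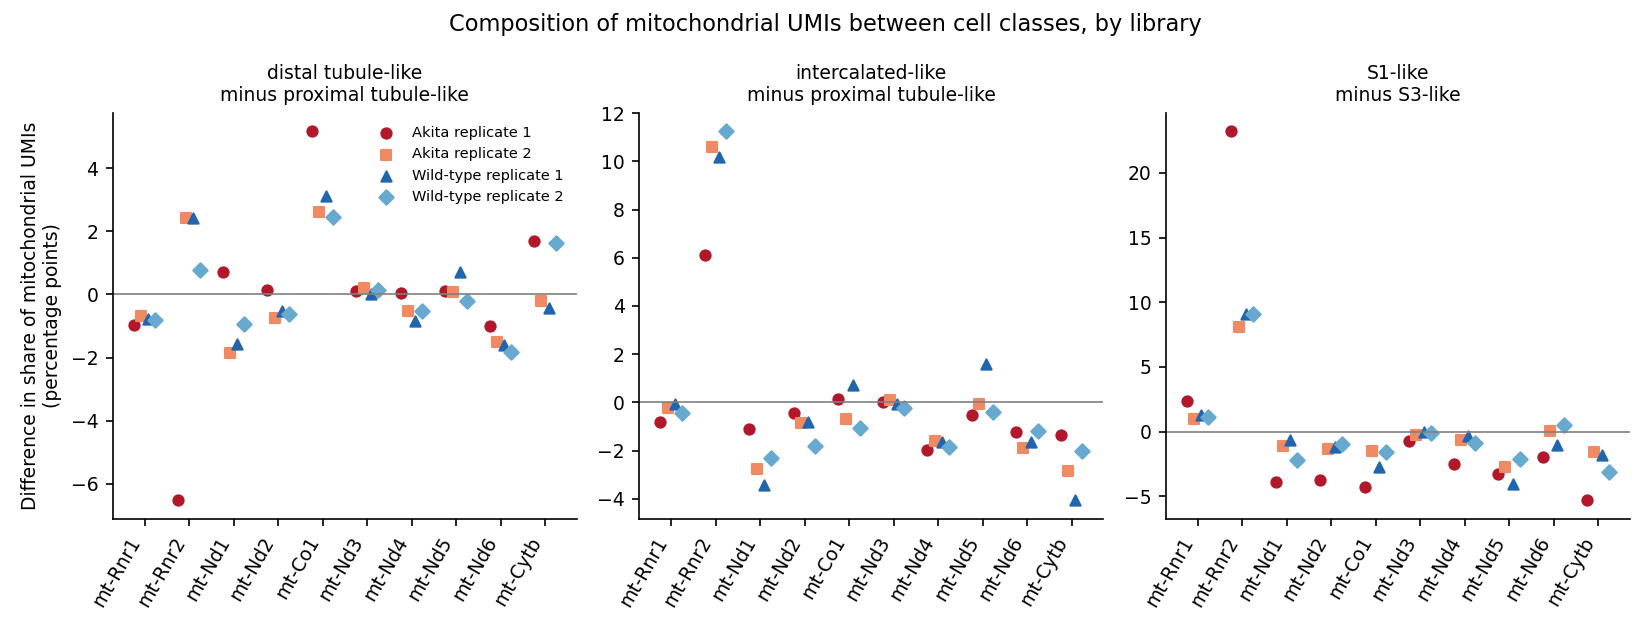
Difference in the share of mitochondrial UMIs (percentage points) for 10 members, 1 point per library, Akita left of Wild-type within each gene: distal tubule-like minus proximal tubule-like cells (left), intercalated-like minus proximal tubule-like cells (middle) and S1-like minus S3-like cells of the proximal tubule (right, each panel with its own axis). mt-Co1 is above 0 in all 4 libraries in the left panel and mt-Rnr2 in the middle and right panels.

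Within the proximal tubule the composition differed between its ends. S1-like cells, from the early convoluted segment, were 1 subcluster led by Spp2, Spp1, Acss1 and Cyp2d26. It held 5 listed S1 markers among its top 50 genes, of which Spp2, Slc7a8 and Slc5a12 were in the top 10. There were 30 and 57 S1-like cells in Akita and 88 and 46 in Wild-type. S3-like cells, from the straight segment, came from subclusters of 235 and 21 cells with 3 listed S3 markers each, the minimum. The larger was led by Ttr, Lpl and Slco1a1 and had no listed S3 marker in its top 10. S3-like cells numbered 20 and 100 in Akita and 73 and 63 in Wild-type. The share of mitochondrial UMIs among all UMIs was 25.8% and 22.6% in S1-like cells of Akita, against 28.0% and 23.8% in S3-like cells, and 25.9% and 22.2% against 22.2% and 22.0% in Wild-type. mt-Rnr2 made up 68.3% and 53.5% of mitochondrial UMIs in S1-like cells of Akita, against 45.0% and 45.4% in S3-like cells. In Wild-type it made up 50.3% and 60.7%, against 41.2% and 51.6%. It was higher in 4 of 4 libraries, but its log2 fold of 0.34 ± 0.25 was not called (edgeR adjusted p 0.344).

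mt-Rnr1 made up 4.74% and 3.25% in S1-like cells of Akita, against 2.37% and 2.26% in S3-like cells. In Wild-type it made up 3.14% and 2.83%, against 1.83% and 1.67%, and it rose by 0.76 ± 0.20 (edgeR adjusted p 0.00356). mt-Nd5, a proton-pumping subunit of complex I, made up 1.78% and 3.45% in S1-like cells of Akita, against 5.08% and 6.20% in S3-like cells. In Wild-type it made up 2.98% and 2.53%, against 7.07% and 4.66%, and it fell by 1.11 ± 0.21 (edgeR adjusted p 4.25e-05). For both genes the S1-like and S3-like ranges did not overlap. mt-Co1 and mt-Nd3 fell by 0.87 ± 0.23 and 0.84 ± 0.24 (edgeR adjusted p 0.00315 and 0.00623), calls that were lost without Wild-type replicate 1 (edgeR adjusted p 0.123 and 0.0627) and, for mt-Nd3, also without Akita replicate 1 (edgeR adjusted p 0.107). Of 13 members 1 was called higher, against 12.7% of 895 genes, and 3 lower, against 12.0%, in all 4 against 24.7%, and 2 without Wild-type replicate 1. Per all UMIs the same 4 members were called, 1 higher against 12.4% of genes and 3 lower against 16.9%, in all against 29.3%. mt-Rnr1, the one called higher, lost its call there without Wild-type replicate 1 and with barcodes 1 base apart counted once (edgeR adjusted p 0.0719 and 0.0578), while mt-Co1 and mt-Nd3 kept their calls there without Wild-type replicate 1 (edgeR adjusted p 0.000692 and 2.84e-06).

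The ratio of mt-Nd6 to mt-Nd5 was 1.91 and 1.87 in S1-like cells of Akita, against 1.06 and 1.04 in S3-like cells, and 1.98 and 1.84 against 0.981 and 0.892 in Wild-type. Every S1-like value lay above every S3-like value. mt-Nd6 itself showed no single direction as a share of mitochondrial UMIs, lower in the S1-like cells of replicate 1 of either genotype and higher in those of replicate 2. Without the shared barcodes Wild-type replicate 1 kept 1 S3-like cell, and in the 3 libraries left mt-Rnr2 and mt-Rnr1 were higher, and mt-Nd5, mt-Co1 and mt-Nd3 lower, in 3 of 3.

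The total share of rRNA among mitochondrial UMIs followed these genes. It was 58.8 ± 3.27% in intercalated-like cells, against 49.7 ± 4.14% in proximal tubule-like cells (SD, n = 4 libraries), a difference of 9.15 points that was positive in 4 of 4 libraries (exact sign-flip permutation p 0.125, the smallest that 4 libraries allow, two-sided). By the median over cells it was 4.81 points and positive in 3 of 4 (exact permutation p 0.25), with no limit on mitochondrial UMIs 13.8 points, and with shared barcodes left out 3.38 points and positive in 2 of 3. Distal convoluted tubule-like cells had 57.2 ± 1.86%, 7.55 points above proximal tubule-like cells and higher in 4 of 4 libraries (exact permutation p 0.125). At Leiden resolution 2 this was 4.85 points, positive in 3 of 4, with the mt- genes kept in the clustering 2.24 points, positive in 3 of 4, and with at least 500 genes 14.2 points, positive in 4 of 4. Leaving out shared barcodes gave 9.70 points, positive in 3 of 3. Thick ascending limb-like cells had 48.0 ± 3.54% and distal tubule-like cells as a whole 48.6 ± 2.64%, 1.62 and 1.03 points lower on average and higher in 2 of 4 libraries each (exact permutation p 0.75 and 0.875). Once shared barcodes were left out, these became -8.085 points, with 1 of 4 libraries higher, and -9.715 points, with 0 of 4 higher (exact permutation p 0.375 and 0.125), on 2 and 5 cells in Wild-type replicate 1. At the limit of 25% mitochondrial UMIs the distal tubule-like difference was -2.92 points, with 0 of 4 higher, and other alternatives gave positive values, up to 5.12 and 3.93 points with no limit on mitochondrial UMIs.

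Nuclear-encoded partners of these transcripts were described for the same distal tubule-like cells. They were among the genes used for clustering, so their counts describe the classes and are not independent of how the classes were made. Per all UMIs, 29 of 37 tested complex I genes were called higher and 1 lower in distal tubule-like cells, 8 of 9 complex III genes higher and 0 lower, 12 of 12 complex IV genes higher, and 15 of 17 tested ATP synthase genes higher and 1 lower, against 24.2% of all genes higher and 25.9% lower. The median log2 folds were 0.67, 0.65, 0.90 and 0.74, against 0.0011 over all genes. Cox6c, a complex IV subunit, had 4276 and 5518 CPM in distal tubule-like cells of Akita, against 1840 and 2456 CPM in proximal tubule-like cells. In Wild-type it had 5613 and 5042 CPM, against 2336 and 1793 CPM, and its log2 fold was 1.22 ± 0.14. Cox4i1 (0.73 ± 0.13), Ndufa1 (1.18 ± 0.13), Ndufa13 (0.31 ± 0.13), Uqcr11 (0.65 ± 0.13), Uqcrq (0.63 ± 0.13), Atp5g3 (0.66 ± 0.13) and Atp5j (1.03 ± 0.14), the other most abundant genes of these lists, were higher as well. mt-Co1 was the one mitochondrial member called in that direction.

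In intercalated-like cells 2 of 37 complex I genes were called higher and 6 lower, 1 of 9 complex III genes higher, 4 of 12 complex IV genes higher, and 4 of 17 ATP synthase genes higher and 2 lower. In all, 11 of 75 were higher (14.7%) and 8 lower (10.7%), against 16.6% and 26.1% of all genes. Of 30 listed genes for mitochondrial transcription, RNA processing and stability, 5 were counted deeply enough to test in these classes. Per all UMIs, 1 of the 5 was called higher and 1 lower in distal tubule-like cells, against 24.2% and 25.9% of all genes. In intercalated-like cells 0 were called higher and 1 lower, against 16.6% and 26.1%. The gene called lower in both was Lrpprc, which stabilises mitochondrial mRNAs. Its log2 fold was -0.90 ± 0.24 in distal tubule-like cells and -0.99 ± 0.38 in intercalated-like cells (edgeR adjusted p 0.00151 and 0.0318). Hsd17b10, a subunit of the mitochondrial RNase P that frees tRNA ends, had log2 folds of -0.10 ± 0.24 and 0.51 ± 0.33 there and was not called. In S1-like against S3-like cells 8 of 72 genes of the complex lists were called higher (11.1%) and 4 lower (5.6%) per all UMIs, against 12.4% and 16.9% of all genes, and none of the RNA processing list could be tested.

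Barcode quality also moved with the composition. Retained cells held only 25.8% to 34.6% of each file's mitochondrial UMIs, and the rest lay on barcodes with under 200 genes or over 50% mitochondrial UMIs. Barcodes over 50% mitochondrial numbered 1476 and 1125 in Akita, against 1255 and 1277 in Wild-type. Of these, 54 and 60 in Akita and 115 and 52 in Wild-type had at least 200 genes.

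Barcodes with under 200 genes were rich in rRNA. Their rRNA share was 75.1% and 56.5% in Akita, against 52.7% and 48.0% in retained cells, and 49.9% and 72.9% in Wild-type, against 45.9% and 52.9%. The mean difference was 13.7 points, higher in 4 of 4 libraries (exact permutation p 0.125, the smallest possible). With shared barcodes left out it was 11.9 points and by the median over cells 9.03 points, each higher in 3 of 4 (exact permutation p 0.25 and 0.375). The files fell into pairs: Akita replicate 1 and Wild-type replicate 2 had 75.1% and 72.9%, while Akita replicate 2 and Wild-type replicate 1, the files with shared barcodes, had 56.5% and 49.9%. The same pairs appeared over all deposited barcodes, where mt-Rnr2 made up 62.7% and 48.8% of mitochondrial UMIs in Akita and 42.8% and 61.6% in Wild-type.

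Barcodes over 50% mitochondrial were a mixture of opposite kinds. As a whole their rRNA share was 58.9 ± 12.8%, against 49.9 ± 3.47% in retained cells (SD, n = 4), higher in 3 of 4 libraries (exact permutation p 0.25). Leaving out shared barcodes gave 9.71 points, again higher in 3 of 4. Those with at least 200 genes had 38.6% and 32.1% in Akita and 31.1% and 38.3% in Wild-type, on average 14.85 points below retained cells and lower in 4 of 4 libraries (exact permutation p 0.125). Those with under 200 genes were on average 13.85 points above retained cells and higher in 4 of 4 (exact permutation p 0.125). This division by detected genes was chosen after the data had been seen. In those with at least 200 genes mt-Cytb made up 11.7% and 14.4% of mitochondrial UMIs in Akita, against 10.1% and 10.8% in retained cells, and 14.3% and 11.8% in Wild-type, against 12.0% and 10.3%.

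Along the number of detected genes the mt-Rnr2 share fell up to 200 genes and was about level from there on. The mt-Rnr2 share averaged 69.2 ± 12.6% in barcodes with under 50 genes, 63.9 ± 13.1% with 50 to under 100, 49.7 ± 7.97% with 100 to under 200, 43.6 ± 3.99% with 200 to under 500, 44.6 ± 5.64% with 500 to under 1000 and 43.4 ± 4.73% with at least 1000 (SD, n = 4). mt-Cytb ran the other way, with 5.43 ± 2.34% below 50 genes and 12.0 ± 1.08% from 1000 genes. mt-Rnr1 stayed between 2.08% and 2.43% in all 6 bins.

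**Figure D4:**
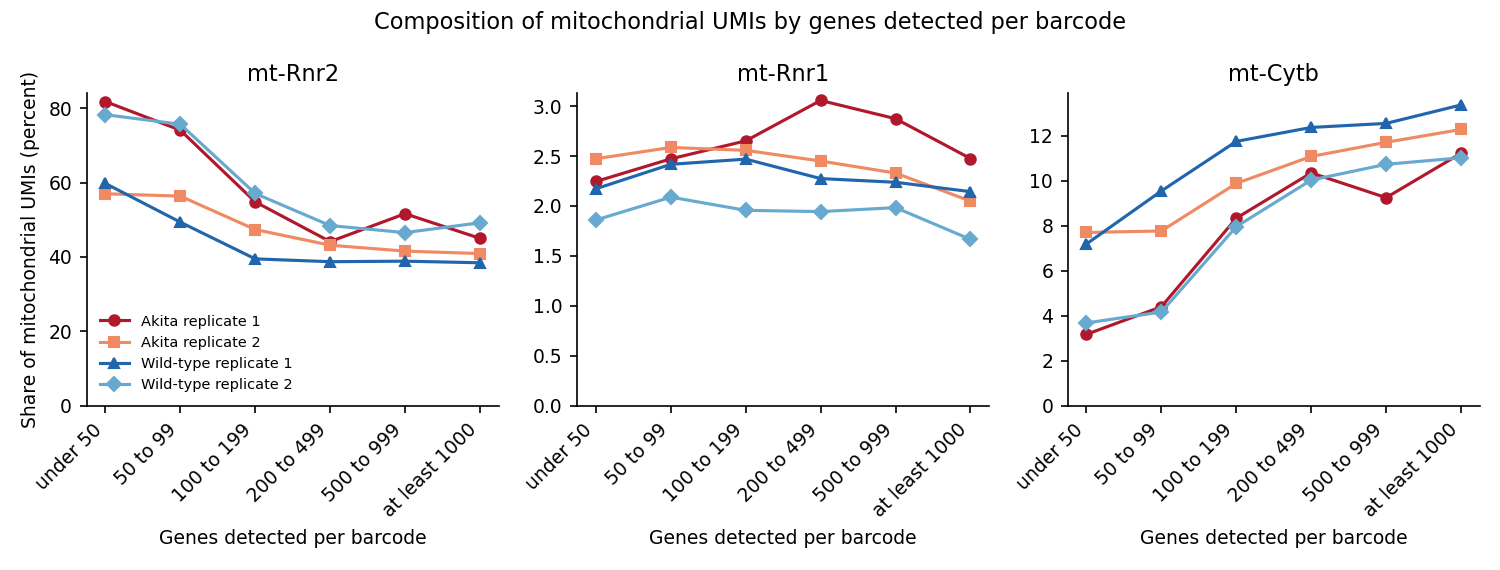
Share of mitochondrial UMIs (percent) taken by mt-Rnr2, mt-Rnr1 and mt-Cytb in barcodes grouped by the number of genes detected, 1 line per library over all deposited barcodes (each panel with its own axis). mt-Rnr2 falls and mt-Cytb climbs up to 200 genes in all 4 libraries, and below 100 genes Akita replicate 1 and Wild-type replicate 2 lie apart from the other libraries.

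No mitochondrial transcript passed the test between Akita and Wild-type cells. The mitochondrial share of UMIs averaged 19.2 ± 0.508% in Akita, against 19.0 ± 2.05% in Wild-type (SD, n = 2 libraries each, exact permutation p 1.0, with 0.3333 the smallest possible). The rRNA share of mitochondrial UMIs was 50.4 ± 3.29% in Akita and 49.4 ± 4.95% in Wild-type (exact permutation p 1.0). In edgeR's quasi-likelihood test over all retained cells 0 of 20 tested members were called, against 0.0% of 7169 genes, and no member had an unadjusted p under 0.05, which 68 genes had. DESeq2 also called 0, with 7 genes at an unadjusted p under 0.05. The median log2 fold was 0.03 over the 20 members and 0.0012 over all genes.

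The folds of single members were small beside their errors. The highest among mRNAs and rRNAs was 0.25 ± 0.25 for mt-Rnr1, followed by 0.21 ± 0.22 for mt-Nd3, and the lowest were -0.15 ± 0.28 for mt-Nd1 and -0.11 ± 0.29 for mt-Cytb. Of the named tRNAs mt-Ta had -0.43 ± 0.36 and mt-Tq 0.22 ± 0.28. In proximal tubule-like cells 0 of 20 members and 0.0% of 6098 genes were called (57 genes at an unadjusted p under 0.05 with edgeR, 7 with DESeq2, which called 0). There mt-Rnr1 had a log2 fold of 0.24 ± 0.29, mt-Nd1 -0.19 ± 0.34 and mt-Rnr2 0.03 ± 0.42. The nuclear lists gave no call either in all retained cells or in proximal tubule-like cells. Over all retained cells their medians were 0.02 for complex I, 0.02 for complex III and 0.05 for complex IV. For ATP synthase and mitochondrial RNA processing they were 0.0049 and 0.08. In proximal tubule-like cells the medians were, in the same order, -0.012, -0.030, 0.050, 0.0089 and 0.064.

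**Figure D5:**
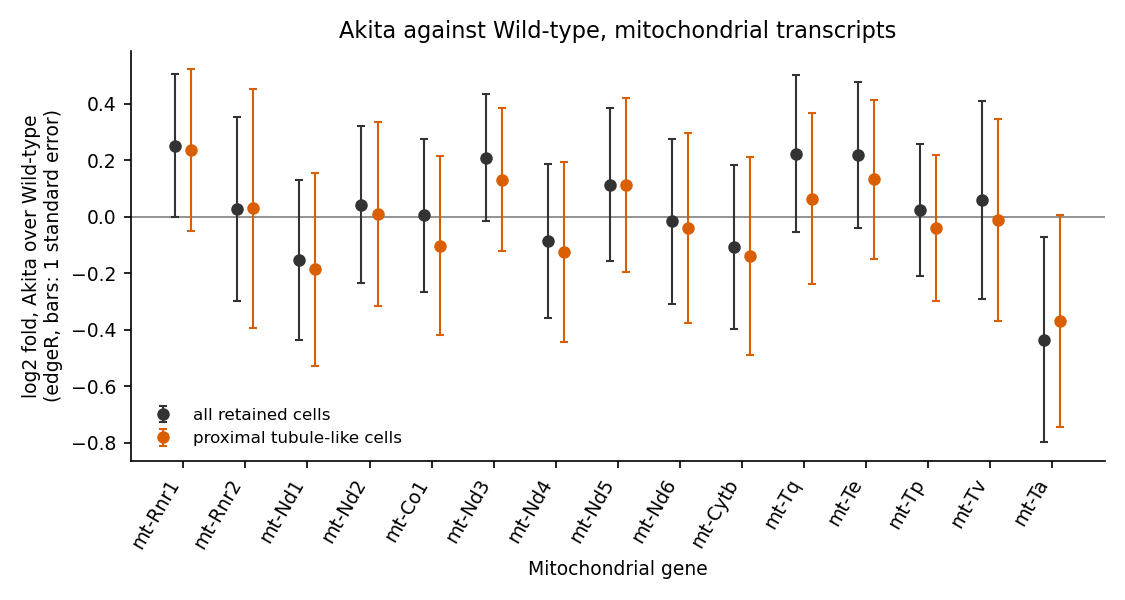
log2 fold of Akita over Wild-type (edgeR, bars of 1 standard error, 2 libraries against 2) for the tested rRNAs, mRNAs and named tRNAs, in all retained cells (black) and in proximal tubule-like cells (orange). All values lie between -0.43 and 0.25, and every bar except that of mt-Ta in all retained cells reaches 0.

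The shared barcodes bear on this comparison directly, since the mouse of origin of those cells is not known. Without them 0 of 18 tested members were called in all retained cells, the mitochondrial share differed by -0.726 points and the rRNA share by 2.72 points (Akita minus Wild-type). In the 424 barcodes retained in both files the rRNA share of mitochondrial UMIs was 46.0% in the file of Akita replicate 2 and 45.2% in that of Wild-type replicate 1. Among the cells whose barcode was in 1 of these files only, it was 61.3% for Akita replicate 2 (162 cells) and 55.7% for Wild-type replicate 1 (110 cells). Those cells were shallower, with 18404 and 16782 mitochondrial UMIs in all, against 120764 and 142157 for the 424 barcodes. The part of depth in this difference was not tested. The compositions of the libraries were also set side by side, as the percentage of mitochondrial UMIs that would have to move between members to make one like the other. This distance was 2.45 points between Akita replicate 1 and Wild-type replicate 2, and 3.17 points between Akita replicate 2 and Wild-type replicate 1. It was 5.87 points between the Akita replicates and 7.40 points between the Wild-type replicates, and 7.62 and 5.67 points for the remaining pairs of Akita and Wild-type libraries.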

How the data were processed

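The deposited files give UMI counts per gene and barcode, without normalization. They were made against GRCm38 with featureCounts 1.6.0, STAR 2.5.2b and UMI-tools 0.5.3, per the submitters' processing notes. The annotation release, strand setting and cell filter are not given in the sources used here. Identifiers were given symbols from GENCODE. In each file 4 strings that are no barcodes were left out.

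Retained cells (at least 200 genes, at most 50% mitochondrial UMIs) were clustered with scanpy 1.11.5 and leidenalg 0.10.2 at resolution 1 without the mt- genes and their copies, and named from marker lists with at least 3 markers among the top 50 genes. No doublets were removed. Nuclear copies were found as annotated transcripts that share 50-base windows with a member. Counts were summed per library and class and compared with edgeR 4.0.16 (TMM factors, or the sum of mitochondrial UMIs as library size without TMM; filterByExpr; two-sided; Benjamini-Hochberg adjustment over all genes tested; threshold 0.05), with library as a block between classes. Classes needed at least 10 cells in every library; the distal tubule-like cluster, intercalated-like cells (at least 5) and S1-like against S3-like cells were added after seeing the data. DESeq2 1.42.0 was an alternative. All 13 mRNAs, both rRNAs, the 5 tRNAs with most UMIs and the 2 most abundant genes of each nuclear list are named. Members and lists were chosen with earlier results of these data known. Nothing in the labels says that the libraries of a group were prepared apart, so p-values measure the spread between these libraries. Limits and intervals cover counting error only. The scripts were tested on simulated data, in which the libraries were independent. For Akita against Wild-type in all retained cells, 33 of 96 genes changed 2-fold and 86 of 95 changed 4-fold were recovered, with 6 false calls. For distal tubule-like against proximal tubule-like cells the recovered counts were 24 of 42 and 59 of 59, with 0 false calls.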

Additional observations from a re-analysis of the deposited data

Results flagged for a closer look

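The difference in mt-Tq share of mitochondrial UMIs between distal tubule-like and proximal tubule-like cells had opposite signs in the genotypes, at 0.535 and 0.123 points in the Akita libraries and -0.278 and -0.124 points in the Wild-type libraries, and in distal convoluted tubule-like cells it was 0.166 and 0.0254 points in Akita and -0.742 and -0.493 points in Wild-type. The mt-Nd3 difference between intercalated-like and proximal tubule-like cells was likewise 0.00643 and 0.102 points in Akita and -0.0558 and -0.256 points in Wild-type. For mt-Tv it was 0.0437 and 0.00947 points in Akita and -0.0486 and -0.0324 points in Wild-type in distal convoluted tubule-like cells, and 0.0124 and 0.0293 points in Akita and -0.0267 and -0.0019 points in Wild-type in intercalated-like cells. None of these differences between genotypes was tested. They were listed because both Akita libraries had one sign and both Wild-type libraries the other, so the selection itself fixed that split. The mt-Tv values rest on few UMIs. Over all retained cells mt-Tv had 61 and 35 UMIs in Akita and 70 and 40 in Wild-type. Its share in distal convoluted tubule-like cells ran from 0.0% to 0.0995%.

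The strings that are not cell barcodes, which no comparison uses, held 97 and 97 mitochondrial UMIs in Akita, against 114 and 107 in Wild-type. These were 0.716% and 0.749% of their UMIs in Akita and 0.807% and 0.734% in Wild-type, against 17.4% to 20.6% in proximal tubule-like cells.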

How the results depend on the processing

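Of 525 checks of 50 calls of single members, 470 kept the call, 54 lost it and 1 changed sign: mt-Co1 in thick ascending limb-like cells per all UMIs, at -0.10 with no limit on mitochondrial UMIs. Of 287 checks of 22 counts and shares, 250 kept the sign (differences in shares) or lay within 1.5 times the reported value (counts), 19 counts moved further and 18 differences changed sign. A difference that kept its sign can still have moved in size, as for distal tubule-like and thick ascending limb-like cells without the shared barcodes (-9.715 and -8.085 points). The cause was not tested.

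With no filter on low counts, 1 gene was called between Akita and Wild-type in all retained cells and 1 in proximal tubule-like cells, and per all UMIs 14 members were called in distal convoluted tubule-like, 7 in distal tubule-like and 8 in thick ascending limb-like cells. With no limit on mitochondrial UMIs 13 members were called per all UMIs and 6 per mitochondrial UMI in distal tubule-like cells, and 15 per all UMIs in thick ascending limb-like cells. Without the shared barcodes 1 member was called per all UMIs in distal tubule-like cells. In the reported fits 50.2% of all genes were called per all UMIs in distal tubule-like cells, and 48.0% per mitochondrial UMI. For distal convoluted tubule-like and thick ascending limb-like cells the shares per all UMIs were 58.1% and 65.6%. The shares under these alternatives are not given here, so their counts cannot be read as results about the members.

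The difference of Akita from Wild-type in mitochondrial share (0.131 points) was -0.726 without the shared barcodes, -0.399 with each kept in 1 file and -0.110 with barcodes 1 base apart counted once. That in rRNA share (0.937 points) was -0.344 at the limit of 25% mitochondrial UMIs. The rRNA difference of barcodes over 50% mitochondrial was -14.85 points for those with at least 200 genes. For distal tubule-like cells it was 0.352 points with at least 500 genes and 3.93 with no limit on mitochondrial UMIs. For thick ascending limb-like cells it was 0.348 with barcodes 1 base apart counted once, 1.46 with at least 500 genes, 5.12 with no limit, 0.229 at Leiden resolution 0.5 and 1.79 with the mt- genes kept in the clustering.

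Leaving out 1 library gave 0 to 23 genes called between Akita and Wild-type in all retained cells (23 with Akita replicate 2 left out, 1 with Akita replicate 1 left out and 14 with Wild-type replicate 1 left out) and 0 to 14 in proximal tubule-like cells (11 and 14 with Akita replicate 2 and Wild-type replicate 1 left out), with 0 members in each. It gave 2 to 10 members per all UMIs and 2 to 6 per mitochondrial UMI in distal convoluted tubule-like cells, and 2 to 6 in S1-like against S3-like cells. With every library in, 58.1% and 58.3% of all genes were called in these distal convoluted tubule-like fits. For S1-like against S3-like cells the shares were 29.3% per all UMIs and 24.7% per mitochondrial UMI. With 1 library left out, the shares over all genes are not given here. The differences ran from -1.317 to 1.578 points for the mitochondrial share, -2.559 to 4.433 for the rRNA share, -1.963 to 1.115 for distal tubule-like and -3.335 to 1.122 for thick ascending limb-like cells. A lone library is assumed to vary like the others.

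Over all retained cells, same-numbered libraries deviated in opposite directions (r -0.246) and differently numbered ones in the same direction (r 0.246). With 2 libraries per group each of these values fixes the others. The differently numbered pairs include the libraries with shared barcodes, so the values cannot tell whether the numbers pair the libraries. With the replicate block, and with the crossed replicate block added after seeing the data, 0 genes were called (75 and 111 at an unadjusted p under 0.05).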
